A study of Mus musculus with 17 samples.

Results

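The nuclear genes for subunits of the mitochondrial respiratory chain were followed in sorted alveolar type 2 (AT2) cells of the mouse lung, after the small molecule ISRIB and after bleomycin. Members were the protein-coding genes whose symbols start with Nduf plus a subunit letter and a digit (complex I), are Sdha to Sdhd (complex II), or start with Uqcr (complex III), with Cox and a subunit number (complex IV) or with Atp5 (complex V, the ATP synthase). Assembly factors and pseudogenes were left out. The rule gave 84 of the 43430 gene IDs in the count tables, with 37 members in complex I, 4 in complex II, 8 in complex III, 18 in complex IV and 17 in complex V. A few members carry a name that differs from their role: Ndufa4 and Ndufa4l2 bind complex IV, Cox7a2l joins complexes III and IV, and Atp5s is an accessory of complex V. Ndufab1, Cyc1 and Atpif1, which work in these complexes, fall outside the symbol rule and were read in a separate list.

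The respiratory chain passes electrons from NADH (complex I) and succinate (complex II) through ubiquinone, complex III and cytochrome c to oxygen at complex IV. Complexes I, III and IV pump protons while doing so, and complex V uses the proton gradient to make ATP. Most subunits are encoded in the nucleus and imported, and the mitochondrial genome encodes the remaining core subunits of all complexes but complex II. AT2 cells make and secrete surfactant, an energy-demanding task, and are rich in mitochondria.

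All mice were C57BL/6J and 2 months old, and all libraries came from AT2 cells purified by flow cytometry. In the first experiment naive mice received vehicle (4 libraries) or ISRIB (4 libraries), which relieves the block on translation imposed by the integrated stress response, and cells were taken 24 h later. These libraries were poly(A)-selected from 3 ng of RNA. In the second experiment naive mice (4 libraries) were compared with mice 14 days after bleomycin (5 libraries), an agent that injures the alveolar epithelium and causes fibrosis. These libraries were made from 0.35 ng of total RNA with another kit, and all 9 are labelled as vehicle and titled saline, the bleomycin libraries included. The sources used here give no dose and do not say whether each library came from a separate mouse, so p-values measure the spread between these libraries. No comparison was made across the kits.

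Each poly(A) library held between 10493574 and 15727139 counts, and each total-RNA library between 3295257 and 6333166. The members made up 0.595% to 0.622% of the poly(A) counts, 0.271% to 0.304% in naive and 0.3% to 0.457% in bleomycin libraries. Values are given in CPM, counts scaled to a library total of 10 to the power 6. The markers matched the AT2 label: the 10 AT2 markers summed to 80773 to 88182 CPM in naive and 50423 to 88705 CPM in bleomycin libraries, and lymphocyte markers to at most 1.01 CPM. The AT2 sums were 185201 to 189253 CPM in vehicle and 177116 to 189607 CPM in ISRIB libraries. Airway markers there summed to 3830 to 4288 and 2366 to 4164 CPM. Of the AT2 markers Etv5 was called lower in both comparisons, and Sftpd and Napsa were called higher after bleomycin. After bleomycin all 6 transitional epithelial markers and 6 of 8 alveolar type 1 markers were called higher, and 7 fibroblast markers summed to 17.5 to 115 CPM against 3.87 to 10.1 CPM in naive libraries. In bulk samples, fewer cells of a type and less RNA per cell cannot be told apart.

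In vehicle libraries the ATP synthase and cytochrome c oxidase genes led the members by level per length of the principal transcript. Atp5b, the catalytic beta subunit of the ATP synthase, stood at 310 CPM per kb and Cox4i1, the ubiquitous form of complex IV subunit 4, at 299 ± 6.51 CPM per kb (SD, n = 4). Cox6a1 followed at 257, Atp5a1, the alpha subunit, at 256, and Cox8a at 251 CPM per kb. The highest levels per length in the other complexes were 159 CPM per kb for Ndufc2 (complex I), 137 for Uqcrh, the hinge subunit of complex III, and 85.6 for Sdha, the flavoprotein subunit of complex II. In naive total-RNA libraries the leading members per complex were Ndufb10 (73.1 CPM per kb), Sdha, Uqcrh (127), Cox4i1 (115) and Atp5h (131).

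Several complex IV subunits exist as a ubiquitous form and a tissue-restricted form, and AT2 cells used mostly the ubiquitous one. Cox4i1 made up 98.7% to 99.4% of the summed level per length of Cox4i1 and Cox4i2 in vehicle libraries. No count was listed in any library for Cox7b2, the testis form, or Cox8b, the heart and muscle form. Cox8c had 1 count in all, and Ndufa4l2, a hypoxia-responsive relative of Ndufa4, had 1 count in the poly(A) and 2 in the total-RNA libraries. Among the 3 genes for the identical c subunit of the ATP synthase rotor, Atp5g3 gave 87.6% to 89.6% of the summed level per length in vehicle libraries. The share of Atp5g1 rests on a principal transcript annotated at 4715 bases, and 38.3% of the 50-base windows of Atp5g2 also occur in other genes.

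Cox6a2, the heart and skeletal muscle form of complex IV subunit 6A, was the exception. Its level was 53, 54.3, 55.9 and 48.1 CPM in vehicle libraries 1 to 4. Beside Cox6a1 it took 22.4% to 24.2% of the summed level per length there and 38.3% to 39.7% in naive libraries. The 6 muscle markers (Myh6, Myl7, Acta1, Actc1, Tnnt2 and Ckm) summed to 0.452 to 0.776 CPM in vehicle and 0.894 to 4.7 CPM in naive libraries. The gene overlaps 70 exonic bases of Itgad on the opposite strand, and whether the reads were counted by strand is not stated in the sources used. In bleomycin libraries 1 to 5 Cox6a2 was at 2.38, 7.4, 25.6, 10.8 and 23.6 CPM, against 21.8, 18.2, 10.2 and 18.5 CPM in naive libraries 1 to 4. The groups overlapped and the bleomycin libraries spread widely (log2 fold change -0.26, adjusted p = 0.718 by edgeR). The AT2 marker sums of bleomycin libraries 1 to 5 were 50423, 59417, 88705, 74504 and 77955 CPM, the same order as Cox6a2 from lowest to highest. The macrophage and monocyte list had this order too, at 4628, 5653, 13418, 9540 and 11906 CPM. That list was dominated by Lyz2, which AT2 cells also express. In naive libraries 1 to 4 the AT2 sums were 88182, 81585, 82400 and 80773 CPM, which is not the order of Cox6a2. These orders were noticed after the values were seen and were not tested.

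**Figure D1:**
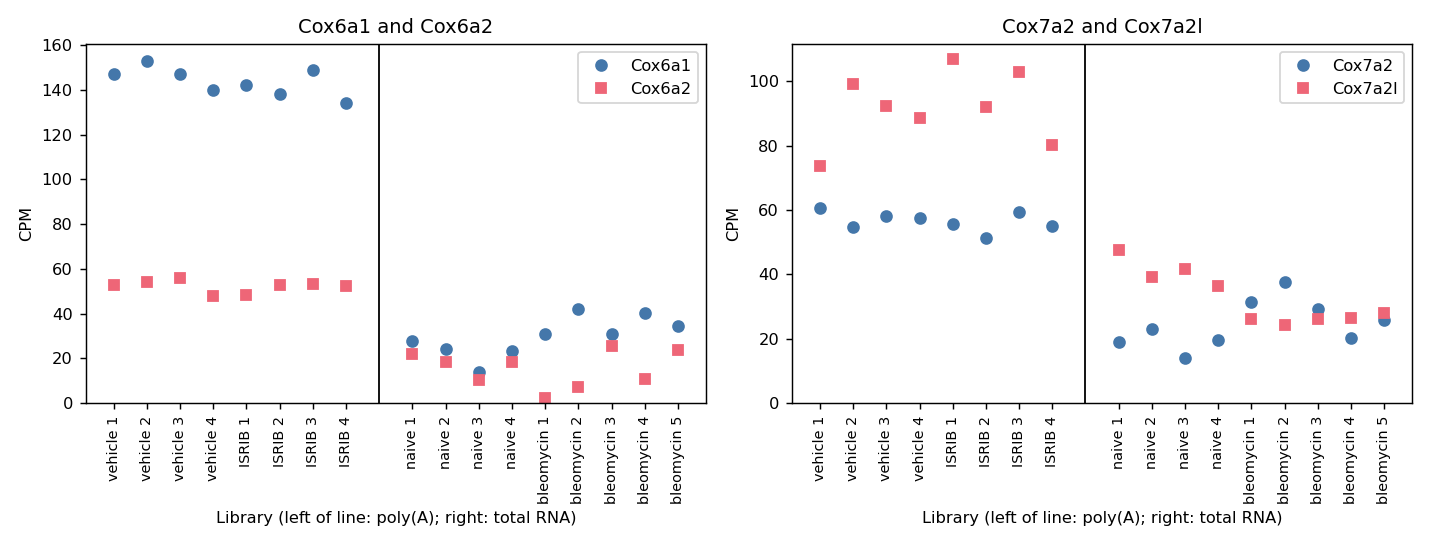
CPM of Cox6a1 and Cox6a2 (left) and of Cox7a2 and Cox7a2l (right) in each of the 17 libraries, with the poly(A) libraries left and the total-RNA libraries right of the line, which are not compared with each other. Cox6a2 ran from 2.38 to 25.6 CPM among bleomycin libraries, and Cox7a2l was at 24.4 to 27.9 CPM in bleomycin against 36.4 to 47.6 CPM in naive libraries.

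No change of these genes was detectable 24 h after ISRIB. Of the 84 members, 80 passed the low-count filter (Ndufa4l2, Cox7b2, Cox8b and Cox8c did not), and 0 were called higher and 0 lower at an adjusted p under 0.05 by edgeR's quasi-likelihood test with Benjamini-Hochberg adjustment over 12054 genes. Among all genes tested 1.1% were called higher and 1.1% lower. Without adjustment, 4 members and 1934 genes had a p under 0.05, and DESeq2 and limma-voom also called 0 members. The median log2 fold change of the members was -0.04, a fold of 0.973, beside -0.0001 for all genes tested.

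The estimates were narrow as well as small. The 95% interval of the difference lay within 1.5-fold in either direction for 76 of the 80 members. The exceptions were Ndufb4, Cox4i2, Cox7a1 and Atp5l, which had low counts. Of the 50-base windows of Ndufb4 18.3%, and of those of Atp5l 7.6%, also occur in other genes, so the levels of these genes are uncertain. Estimates ran from -0.25 to 0.18 on the log2 scale, and 77 members lay within 0.2 of 0. The median absolute log2 fold change was 0.06 for members and 0.10 for all genes tested. Below 0 lay 60 members and above 0 lay 20 (25%), where 50% of all genes tested were above 0. Vehicle and ISRIB libraries did not overlap for 2 members that were higher (2.5%, against 4.26% of all genes), Ndufs4 and Sdhd, and for 3 that were lower (3.75%, against 4.39%), Ndufa11, Ndufc1 and Atp5b.

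The lean below 0 was small and was shared by the complexes. Median log2 fold changes were -0.04 in complex I, -0.03 in complex II, -0.05 in complex III, -0.03 in complex IV and -0.04 in complex V. Taking each library's median log2 difference from the vehicle mean over the members, vehicle libraries 1 to 4 stood at 0.01, -0.02, -0.01 and 0.04 and ISRIB libraries 1 to 4 at -0.00, -0.09, -0.02 and -0.05. The groups overlapped, and ISRIB 2 was the lowest library for 24 members.

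The 4 members with an unadjusted p under 0.05 were all lower after ISRIB. Cox7b, a small complex IV subunit, was at 53.6, 47.9, 54.1 and 50.3 CPM in vehicle and 46, 48.7, 45.4 and 45.1 CPM in ISRIB libraries. ISRIB 2 lay above vehicle 2, and the log2 fold change of -0.15 ± 0.06 (SE) had an adjusted p of 0.233 (edgeR), the lowest of any member. Atp5e (-0.14, the epsilon subunit of the ATP synthase), Ndufa1 (-0.19) and Uqcrq (-0.15) had adjusted p-values of 0.236, 0.242 and 0.275 (edgeR).

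The catalytic and electron-carrying subunits had estimates close to 0. Atp5a1 was at 651, 624, 612 and 639 CPM in vehicle and 643, 601, 624 and 625 CPM in ISRIB libraries, a log2 fold change of -0.02 with a 95% interval of -0.12 to 0.08. Atp5b was at 603, 582, 579 and 611 CPM in vehicle and 576, 567, 555 and 566 CPM in ISRIB libraries. Every ISRIB library lay below every vehicle library, by little: the log2 fold change was -0.07 (95% interval -0.17 to 0.03, adjusted p = 0.521 by edgeR). In complex I, log2 fold changes were -0.04 for Ndufs1, -0.05 for Ndufv1 and 0.13 for Ndufs7, which carry iron-sulfur and flavin centres. In complex II they were -0.03 for Sdha, -0.10 for Sdhb, -0.03 for Sdhc and 0.11 for Sdhd. Uqcrc1, a core subunit of complex III, was at -0.04, the Rieske protein Uqcrfs1 at -0.05, Cox4i1 at 0.01 and Cox5a at -0.01.

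**Figure D2:**
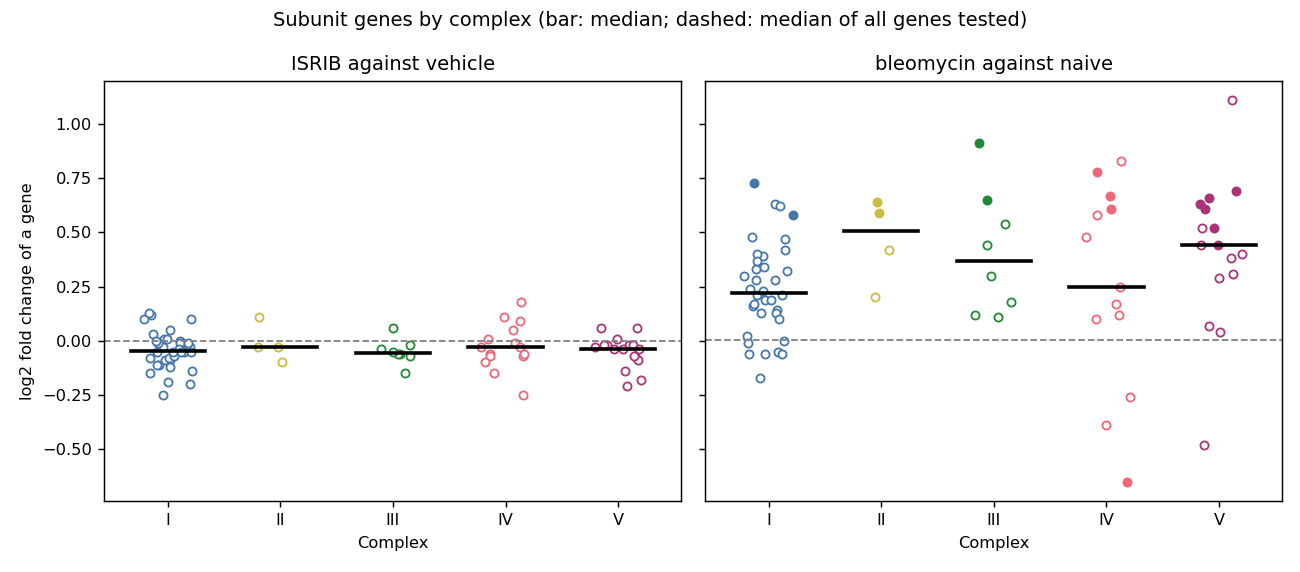
Log2 fold change of each tested member (points, filled where called) by complex, for ISRIB against vehicle (left) and bleomycin against naive (right), with the median of each complex as a bar and the median of all genes tested as a dashed line. ISRIB medians lay between -0.05 and -0.03 with no filled point, and bleomycin medians between 0.22 and 0.51 with 15 filled points above 0 and 1 below. The panels come from different kits and are set side by side only.

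After bleomycin 15 members passed the test as higher than in naive AT2 cells and 1 as lower, and most of the others had estimates above 0 that did not pass. Of the 84 members 77 passed the filter, 15 (19.5%) were called higher and 1 (1.3%) was called lower by edgeR's quasi-likelihood test with Benjamini-Hochberg adjustment over 11223 genes. Among all genes tested 11.2% were called higher and 9.31% lower. The median log2 fold change of the members was 0.30, a fold of 1.23, beside 0.0026 for all genes tested. Above 0 lay 66 of the 77 tested members (85.7%), where 50.2% of all genes tested were above 0. Naive and bleomycin libraries did not overlap for 13 members that were higher (16.9%, against 10.4% of all genes) and for 1 that was lower (1.3%, against 9.35%).

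Each complex held members called higher, to be read against the 11.2% of all genes tested that were called higher. Complex I gave 2 of 36 tested members, a smaller share than among all genes, with a median log2 fold change of 0.22. Complex II gave 2 of 4 with 0.51 and complex III 2 of 8 with 0.37. Complex IV gave 3 of 13 with 0.25 and complex V 6 of 16 with 0.44. All members of complexes II and III lay above 0. The common biological coefficient of variation was 21.1%, against 7.66% in the ISRIB experiment, and the libraries held fewer counts. Only 23 of the 77 members had a 95% interval within 1.5-fold either way, so members that missed the threshold are not shown to be stable. The 7 members that failed the filter were Cox7b2, Cox8b and Cox8c at 0 counts, Ndufa4l2 at 1 count in each group, Cox7a1 (7 naive and 24 bleomycin counts), Cox4i2 (14 and 40) and Atp5l (21 and 28).

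Which library was left out mattered. Of the 15 members called higher, 9 were called in each of the 9 fits with 1 library left out (Ndufa12, Sdhb, Uqcrc1, Uqcrq, Cox5b, Atp5a1, Atp5b, Atp5f1 and Atp5j), and the other 6 were lost in at least 1. The number called higher was 24 without bleomycin 1, 11 without bleomycin 2 and 10 without naive 3, and the median log2 fold change was 0.38, 0.24 and 0.30 in those fits.

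**Figure D3:**
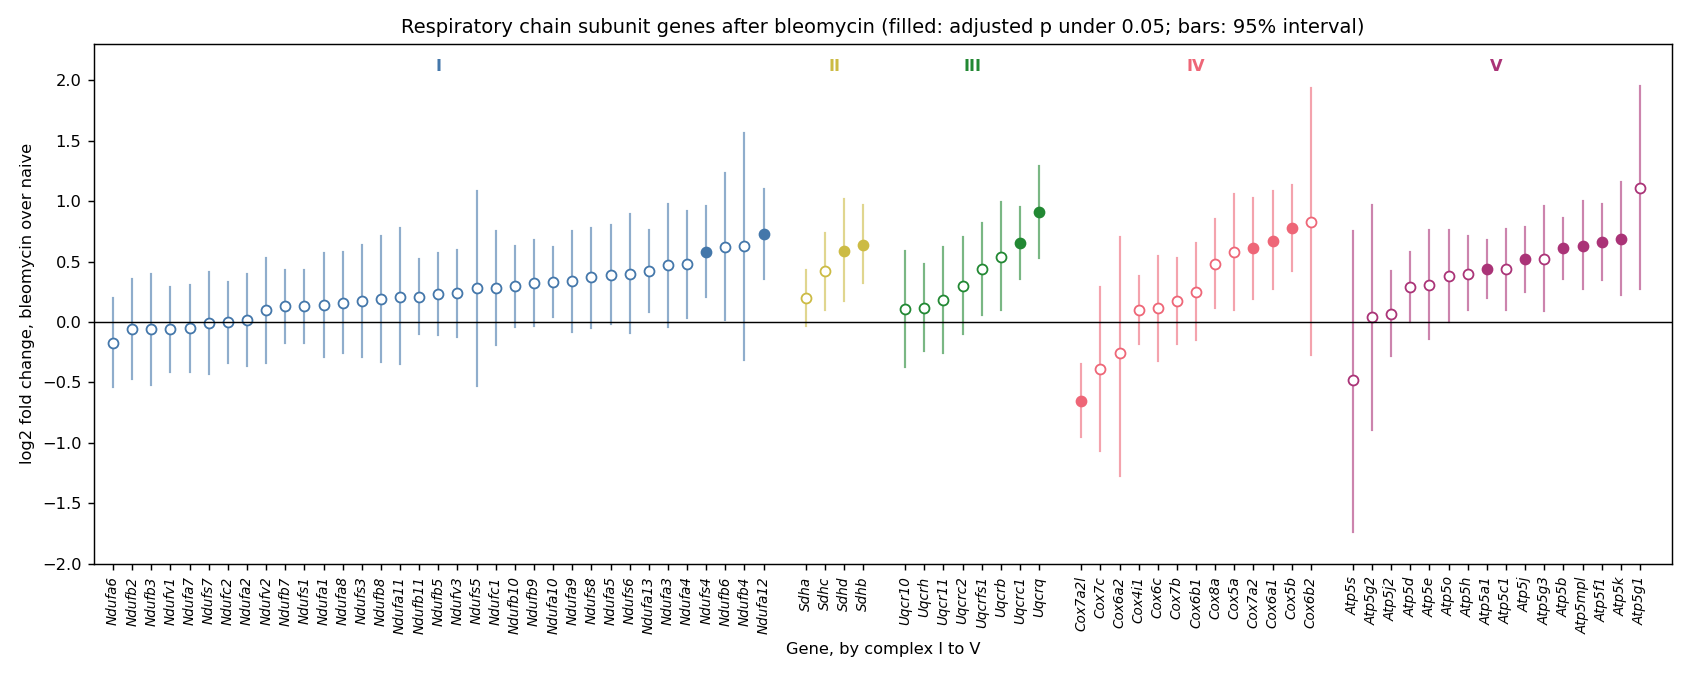
Log2 fold change of bleomycin over naive for 76 of the 77 tested members, ordered within complexes I to V, with 95% intervals as bars and filled points where the adjusted p was under 0.05. The 15 filled points above 0 lie between 0.44 (Atp5a1) and 0.91 (Uqcrq), and the filled point below 0 is Cox7a2l at -0.65.

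Since most members lay above 0, their promoter windows (250 bases before to 50 after the start site, RefSeq, GRCm38.p6) were searched on both strands for 4 motifs of known regulators of respiratory genes: GCATGCGC (NRF1), CCGGAAGT (the ETS factor GABPA), TCAAGGTCA (ERR) and AAGATGGC (YY1). The table held 73 windows for 68 members. NRF1 letters occurred in 13.7% of member windows, against 2.71% of all 32851 windows and 5.36% of windows of genes tested in the bleomycin comparison. YY1 letters occurred in 13.7%, against 2.75% and 4.69%, ETS letters in 6.85%, against 3.89% and 8.71%, and ERR letters in 2.74%, against 0.423% and 0.272%. Any of the 4 occurred in 35.6% of member windows, against 9.25% of all windows and 17.7% of windows of tested genes. Of the 12 members with a window that were called higher, 8 held a motif, against 18 of the other 56. Among the 8, Ndufs4, Sdhd, Cox6a1 and Atp5k lost their call in some fits with 1 library left out. Sdhb, Uqcrc1, Atp5f1 and Atp5j kept theirs in all. The other 56 include Cox7a2l, which was called lower, and members that failed the filter. These counts describe the letters only.

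The stretches of those 8 promoters are shown 5′ to 3′ on the gene's strand, with the motif in capitals and up to 40 bases either side within the window. In Uqcrc1, Cox6a1 and Atp5k the NRF1 letters occur on both strands and overlap as one palindrome, and in Sdhb on 1 strand.
Sdhb, chr4:140961177-140961264, plus strand: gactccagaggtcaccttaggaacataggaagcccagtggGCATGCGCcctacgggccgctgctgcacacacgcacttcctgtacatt
Uqcrc1, chr9:108936638-108936697, plus strand: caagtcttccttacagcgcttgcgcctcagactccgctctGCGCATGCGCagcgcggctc
Cox6a1, chr5:115349071-115349160, minus strand: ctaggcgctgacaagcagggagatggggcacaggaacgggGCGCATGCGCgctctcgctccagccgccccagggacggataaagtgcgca
Atp5k, chr5:108434400-108434489, minus strand: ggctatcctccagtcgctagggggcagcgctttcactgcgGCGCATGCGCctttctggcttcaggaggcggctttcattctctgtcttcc
The next 3 carry the YY1 letters, in Atp5f1 as the reverse complement and beginning 3 bases before the start site, and in Ndufs4 beginning at base 36 from the start site.
Ndufs4, chr13:114388045-114388099, minus strand: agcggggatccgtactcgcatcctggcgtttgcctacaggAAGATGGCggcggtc
Atp5f1, chr3:105959219-105959306, minus strand: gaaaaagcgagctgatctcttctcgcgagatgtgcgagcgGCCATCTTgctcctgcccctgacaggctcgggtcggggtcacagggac
Atp5j, chr16:84835017-84835104, minus strand: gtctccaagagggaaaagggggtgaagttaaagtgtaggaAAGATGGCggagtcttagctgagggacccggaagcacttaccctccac
Sdhd alone of the called members held the ERR letters, as their reverse complement.
Sdhd, chr9:50603800-50603853, minus strand: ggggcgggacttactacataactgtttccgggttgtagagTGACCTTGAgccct
The only member called lower, Cox7a2l, held none of the 4 motifs in its window, shown whole.
Cox7a2l, chr17:83514284-83514583, minus strand: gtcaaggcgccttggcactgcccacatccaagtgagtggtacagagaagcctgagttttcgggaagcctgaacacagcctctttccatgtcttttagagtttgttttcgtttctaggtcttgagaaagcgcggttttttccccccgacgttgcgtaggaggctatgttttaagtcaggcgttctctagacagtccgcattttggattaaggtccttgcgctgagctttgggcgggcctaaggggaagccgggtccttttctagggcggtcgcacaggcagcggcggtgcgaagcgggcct

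Of 15 tested regulators of mitochondrial biogenesis, 1 was called higher after bleomycin, Nfe2l2, the master regulator of antioxidant genes (log2 fold change 0.47, adjusted p = 0.00346 by edgeR), 0 were called lower, and the median was -0.02, where 11.2% of all genes tested were called higher and 9.31% lower. The largest estimate in size was that of the coactivator Ppargc1b, which was not called (-1.05, adjusted p = 0.122 by edgeR). Log2 fold changes were -0.00 for the coactivator Ppargc1a, -0.37 for Nrf1, -0.02 for Gabpa, 0.12 for Esrra and -0.09 for Yy1, whose adjusted p-values ran from 0.183 (Nrf1) to 0.992 (Ppargc1a). After ISRIB the coactivator Pprc1 was called higher (0.50, adjusted p = 0.043 by edgeR), the other 14 were not called, and the median was 0.03.

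In complex I, 2 supernumerary subunits were called higher. Ndufa12, an accessory subunit of the peripheral arm, was at 15.4, 24.4, 19.8 and 24.1 CPM in naive and 36.5, 41.5, 32.1, 35.6 and 29.5 CPM in bleomycin libraries. The groups did not overlap, and the log2 fold change was 0.73 ± 0.18 (SE, adjusted p = 0.00637 by edgeR), although 17.7% of its 50-base windows also occur in Gm15920. Ndufs4, a peripheral-arm subunit whose loss causes Leigh-like disease in mice, was at 17.1, 24.1, 24.9 and 25.9 CPM in naive and 28.6, 39.7, 39.2, 27.5 and 37.1 CPM in bleomycin libraries. Its groups did not overlap either (0.58 ± 0.18 SE, adjusted p = 0.0251 by edgeR), but the call was lost without naive 1, naive 2, bleomycin 2 or bleomycin 3, with adjusted p-values of up to 0.101. The core subunits Ndufs1 (0.13), Ndufv1 (-0.06) and Ndufs7 (-0.01) were not called, with adjusted p-values of 0.583 to 0.981 (edgeR). Ndufs8 had a larger estimate, 0.37, and was not called either (adjusted p = 0.203 by edgeR).

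Complex II, which links the tricarboxylic acid cycle to the chain, had 2 of its 4 genes called higher. Sdhb, the iron-sulfur subunit, was at 23.8, 21.4, 23.7 and 22.1 CPM in naive and 29.4, 36.5, 41, 35.6 and 33.9 CPM in bleomycin libraries. Every bleomycin library was above every naive one (0.64 ± 0.15 SE, adjusted p = 0.00654 by edgeR). Sdhd, a membrane anchor, was at 26.2, 23.7, 20.4 and 17 CPM in naive and 27.2, 41.9, 40, 21.7 and 32.5 CPM in bleomycin libraries. Bleomycin 4 lay within the naive range, and this was the least stable call: the log2 fold change of 0.59 ± 0.20 (SE, adjusted p = 0.0458 by edgeR) kept its call in only 2 of 9 fits with 1 library left out (those without bleomycin 1 and without bleomycin 4), with adjusted p-values of up to 0.162. The other anchor, Sdhc, had a log2 fold change of 0.42 (adjusted p = 0.0579) and the flavoprotein Sdha one of 0.20 (adjusted p = 0.211 by edgeR).

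Complex III held the member with the largest called rise. Uqcrq, a small subunit beside cytochrome b, was at 24.8, 28, 23.4 and 21.2 CPM in naive and 33.1, 60.8, 51.7, 37.4 and 44.8 CPM in bleomycin libraries. All bleomycin libraries were above all naive ones, with bleomycin 2 the highest, for a log2 fold change of 0.91 ± 0.18 (SE, a fold of 1.88, adjusted p = 0.0017 by edgeR). Uqcrc1 was at 44.6, 48.1, 46.2 and 58.7 CPM in naive and 65.6, 97.3, 71.9, 84.2 and 70.3 CPM in bleomycin libraries. Here too the groups were apart (0.65 ± 0.14 SE, adjusted p = 0.00311 by edgeR). Uqcrfs1, the Rieske iron-sulfur protein, did not overlap between groups but was not called (0.44, adjusted p = 0.0958 by edgeR), and its partner core subunit Uqcrc2 was at 0.30 (adjusted p = 0.286).

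In complex IV 3 nuclear subunits around the catalytic core rose. Cox5b, a zinc-binding subunit, was at 29.2, 34, 32.7 and 29.8 CPM in naive and 39.4, 70.2, 60.2, 56 and 43.7 CPM in bleomycin libraries. The groups did not overlap (0.78 ± 0.17 SE, adjusted p = 0.00318 by edgeR), and 11.9% of its windows also occur in Gm11273. Cox6a1 was at 27.8, 24.1, 13.8 and 23.5 CPM in naive and 30.7, 42.2, 30.7, 40.2 and 34.5 CPM in bleomycin libraries. Naive 3 was low, and without it the log2 fold change fell from 0.67 to 0.50 and the adjusted p rose from 0.0181 to 0.0727 (edgeR). Estimates without a call were 0.58 for Cox5a (adjusted p = 0.0795 by edgeR), 0.48 for Cox8a (0.057) and 0.10 for Cox4i1 (0.661), and the largest estimate of the complex, 0.83 for Cox6b2, rested on 32 naive and 104 bleomycin counts (adjusted p = 0.285).

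Cox7a2l (ENSMUSG00000024248, chr17:83501918-83517330, GRCm38) was the only one of the 77 tested members called lower. This factor, a relative of the complex IV subunit Cox7a2, takes the place of Cox7a2 where complex IV binds complex III in a supercomplex, and C57BL/6 mice are known to carry a shortened form of the protein. It was at 47.6, 39.3, 41.7 and 36.4 CPM in naive and 26.2, 24.4, 26.3, 26.6 and 27.9 CPM in bleomycin libraries. All bleomycin libraries lay close together and below all naive libraries, for a log2 fold change of -0.65 ± 0.14 (SE, a fold of 0.638, adjusted p = 0.00343 by edgeR). The call held in each of the 9 fits with 1 library left out, with log2 fold changes of -0.71 to -0.58. Of its windows 13.8% also occur in the gene model Gm6969.

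Cox7a2 itself went the other way. It was at 19.1, 22.9, 14.1 and 19.7 CPM in naive and 31.5, 37.7, 29.3, 20.4 and 25.7 CPM in bleomycin libraries. Bleomycin 4 lay within the naive range, and the log2 fold change was 0.61 ± 0.20 (SE, adjusted p = 0.0378 by edgeR), a call lost without naive 1, naive 3, naive 4, bleomycin 1, bleomycin 2 or bleomycin 3, with adjusted p-values of up to 0.139. The ratio of Cox7a2 to Cox7a2l CPM was 0.401, 0.582, 0.338 and 0.541 in naive and 1.2, 1.55, 1.11, 0.767 and 0.92 in bleomycin libraries. The ratios did not overlap, but the pair was chosen after its values were seen and the ratio follows from both calls. After ISRIB the log2 fold changes were 0.11 for Cox7a2l (adjusted p = 0.594) and -0.06 for Cox7a2 (adjusted p = 0.699 by edgeR).

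Complex V gave the most calls, 6 of 16, in its head, its stalk and its membrane part. Atp5b was at 204, 213, 213 and 182 CPM in naive and 277, 380, 314, 297 and 278 CPM in bleomycin libraries. The groups were well apart, and the log2 fold change of 0.61 ± 0.12 (SE) had the lowest adjusted p of all members (0.00139 by edgeR). Atp5a1, which alternates with Atp5b in the catalytic ring, was at 294, 306, 281 and 281 CPM in naive and 328, 452, 393, 381 and 413 CPM in bleomycin libraries. It did not overlap between groups either (0.44 ± 0.11 SE, adjusted p = 0.0104 by edgeR).

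Of the peripheral stalk, Atp5f1 was at 48, 71.8, 63.1 and 49.8 CPM in naive and 76.2, 111, 101, 77.3 and 94.4 CPM in bleomycin libraries. Its stalk partner Atp5j was at 64.4, 74.6, 51.6 and 61.1 CPM in naive and 82.8, 101, 91.7, 78.9 and 97.4 CPM in bleomycin libraries. Neither overlapped between groups, with log2 fold changes of 0.66 (adjusted p = 0.00451) and 0.52 (adjusted p = 0.00808 by edgeR). Atp5a1, Atp5f1 and Atp5j overlap exons on the opposite strand, of Haus1 (129 bases), Wdr77 and Gm42890 (540 bases) and Gabpa (397 bases).

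The small membrane subunits Atp5mpl and Atp5k were called with overlapping groups. Atp5mpl was at 35.6, 38.2, 27.6 and 34 CPM in naive and 37.8, 67.3, 56.4, 59.4 and 42.3 CPM in bleomycin libraries (0.63, adjusted p = 0.0143 by edgeR), and the call was lost without naive 3 (adjusted p = 0.0616). Atp5k was at 27.2, 18.8, 25.8 and 29.2 CPM in naive and 29.9, 59, 37.5, 50.7 and 26.4 CPM in bleomycin libraries (0.69, adjusted p = 0.0342 by edgeR). Bleomycin 5 lay below 2 naive libraries, and the call was lost without bleomycin 2, bleomycin 4 or any naive library (adjusted p up to 0.127). The largest estimate of any member, 1.11 ± 0.40 (SE) for the c-subunit gene Atp5g1, was not called (adjusted p = 0.056 by edgeR) and rested on 58 naive and 206 bleomycin counts.

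**Figure D4:**
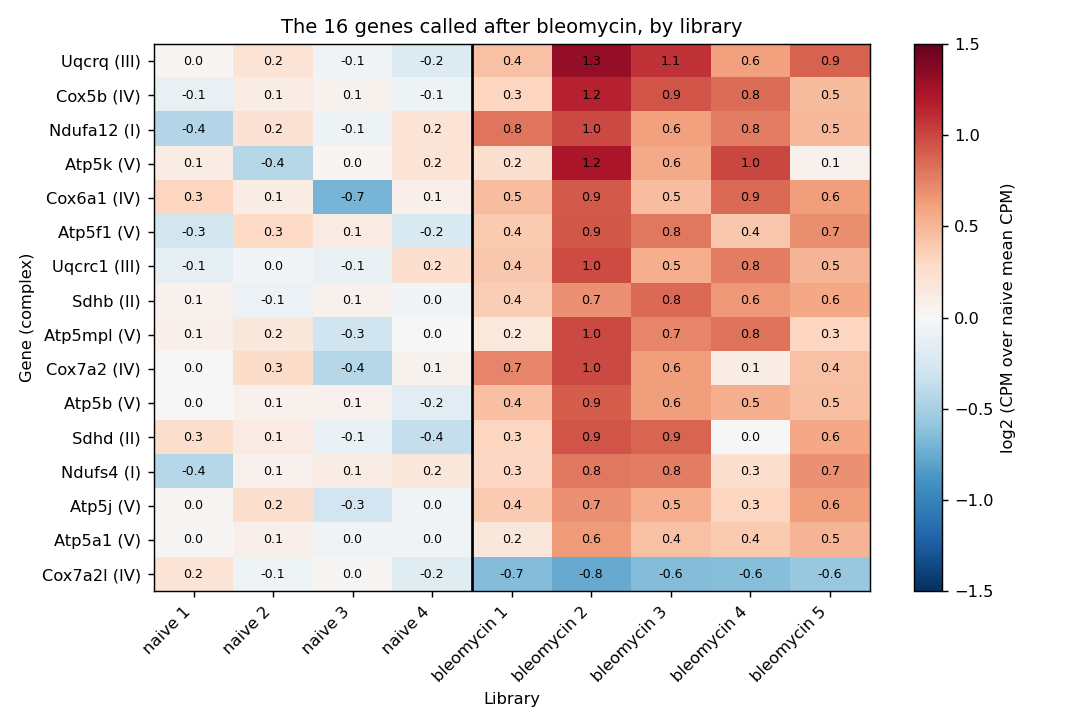
Log2 ratio of each library's CPM to the naive mean for the 16 members called after bleomycin (rows, complex in brackets) in the 4 naive and 5 bleomycin libraries (columns). Cox7a2l is low in all 5 bleomycin libraries (24.4 to 27.9 CPM), and bleomycin 2 is the highest library for Uqcrq (60.8 CPM), Cox5b (70.2 CPM) and Atp5b (380 CPM).

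The bleomycin libraries differed among themselves in how far the members stood above the naive mean. The median log2 difference over the members was 0.05 in bleomycin 1, 0.61 in bleomycin 2, 0.42 in bleomycin 3, 0.15 in bleomycin 4 and 0.24 in bleomycin 5, against 0.02, 0.07, -0.02 and -0.04 in naive libraries 1 to 4. Bleomycin 1 therefore lay within the naive range, and bleomycin 2 was the highest of the 9 libraries for 42 of the 77 members. The medians of complex V were 0.11, 0.81, 0.42, 0.36 and 0.41 in bleomycin libraries 1 to 5, and those of complex I were -0.11, 0.42, 0.35, 0.09 and 0.16. Fibroblast markers summed to 54.5, 115, 17.5, 22.3 and 26.4 CPM in the same libraries, endothelial markers to 20.4, 54, 34.4, 34 and 75.1 CPM (naive 19.4 to 27.3), and transitional markers to 626, 797, 583, 653 and 552 CPM (naive 245 to 277). Bleomycin 2 was highest for fibroblast and transitional markers as well as for the members, while bleomycin 1, second in fibroblast markers, was lowest for the members. The part of these marker genes in the result was not tested. Lyz2, which AT2 cells also express, dominated the macrophage list, and none of its 4 tested markers was called. Of the 5 tested airway markers, Foxj1, a marker of ciliated cells, was called higher, and the list summed to 479 to 916 CPM in bleomycin and 447 to 906 CPM in naive libraries. Bleomycin libraries held 13940 to 17112 genes with at least 1 count at totals of 3299824 to 6333166, and naive libraries 17108 to 19763 genes at totals of 3295257 to 4654479. The part of these values in the result was not tested either.

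The mitochondrially encoded subunits were lower after bleomycin, unless trends of fold change with the total exon length of genes and with GC content were taken out. Of 13 such genes 7 passed the filter, and mt-Nd1, mt-Nd2, mt-Nd4, mt-Nd5, mt-Nd6 and mt-Cytb were called lower, with mt-Co1 at -0.36 (adjusted p = 0.0588 by edgeR) and a median log2 fold change of -0.58. The largest fall was that of mt-Nd2, a proton-pumping subunit of complex I, from 1243 ± 271 CPM (SD, n = 4) to 737 ± 64.1 CPM (SD, n = 5; log2 fold change -0.75, adjusted p = 8.99e-04 by edgeR). All 7 stayed below 0 under each scaling and with each library left out, but 3 were called without naive 2, the highest library, and 4 without naive 4 or with total counts only. With length and GC trends over all genes removed, their log2 fold changes ran from -0.18 to 0.38 with a median of -0.05, while the median of the nuclear members remained 0.30. Summed over the 7 genes, naive libraries stood at 11333, 14126, 9080 and 11563 CPM and bleomycin libraries at 8001, 8500, 8532, 6828 and 8765 CPM, without overlap. Bleomycin 2, the highest library for the nuclear members, was not apart from the other bleomycin libraries in this sum. The 6 genes that failed the filter had 0 to 14 counts per library, where mt-Co1 had 5496 to 12818 in the total-RNA libraries. After ISRIB all 7 were below 0 in the main fit, mt-Co1 at -0.00, with a median of -0.08 and 0 called. With 1 library left out the median ran from -0.14 (without ISRIB 3) to -0.01 (without ISRIB 2). Without ISRIB 2 the values ran from -0.10 to 0.07, so not all stayed below 0.

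**Figure D5:**
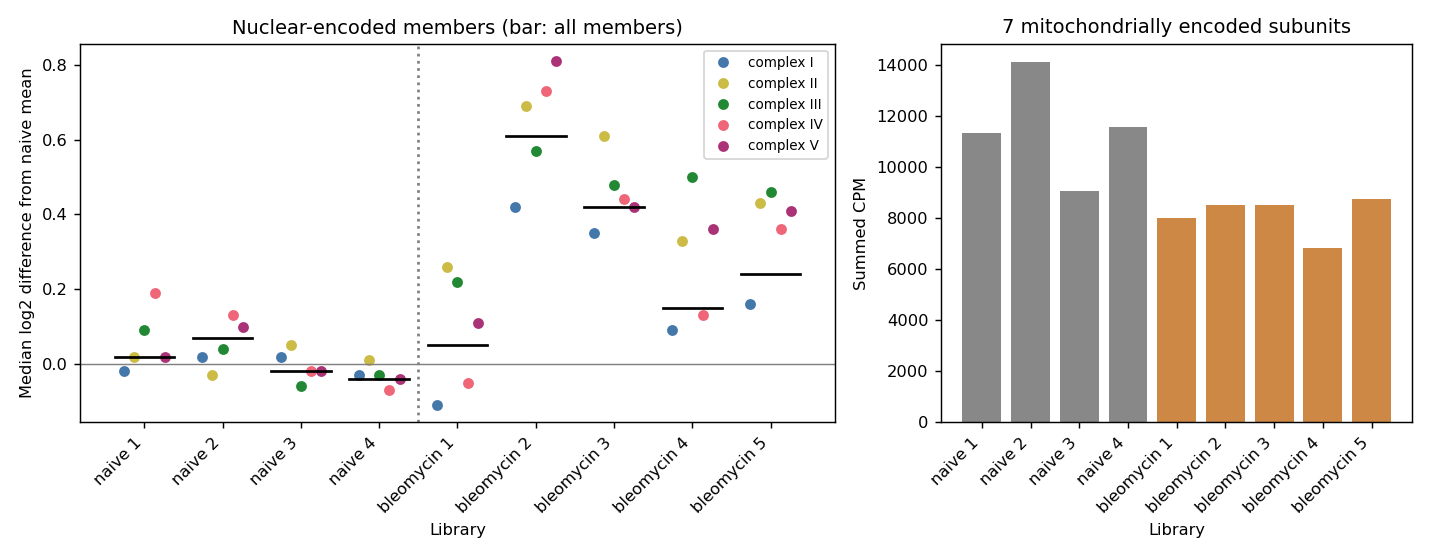
Left, the median log2 difference of the members from the naive mean in each total-RNA library, by complex (points) and over all members (bars). Right, summed CPM of the 7 tested mitochondrially encoded subunits, at 9080 to 14126 in naive and 6828 to 8765 in bleomycin libraries. Bleomycin 1 is close to the naive libraries on the left (0.05), and all 5 bleomycin libraries are below all naive libraries on the right, without correction for length and GC trends.

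The lists of genes that work beside the chain are read against the same 11.2% of all genes called higher and 9.31% called lower. In the list of carriers and subunits outside the symbol rule, 5 of 20 tested genes were called higher after bleomycin and 0 lower, with a median of 0.17: Cyc1, the cytochrome c1 of complex III (0.59), Atpif1, the inhibitor of ATP synthase reversal (0.39), Coq7 of ubiquinone synthesis (0.69), and the ADP/ATP carriers Slc25a4 (0.64) and Slc25a5 (0.51). In the tricarboxylic acid cycle 5 of 16 were called higher and 0 lower, with a median of 0.20, among them citrate synthase Cs (0.43), Idh3a (0.74), Fh1 (0.55) and Mdh2 (0.60). Of 42 tested assembly factors 0 were called in either direction, and the median was 0.10. As for the members, a missing call after bleomycin does not show that a gene was stable. After ISRIB 0 genes of these 3 lists were called, with medians of -0.04, -0.05 and -0.03.

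Reads shared with other genes touched 19 of the 77 members tested after bleomycin, those with 5% or more of their 50-base windows also found in another gene. Of these 4 were called higher (Ndufa12, Cox5b, Cox6a1 and Atp5f1) with a median log2 fold change of 0.38. Of the 58 members below that limit 11 were called higher, with a median of 0.29. How reads matching several genes were counted is not stated in the sources used, so the levels of the 19 are uncertain.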

How the data were processed

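The deposited values are whole-number read counts per gene, 1 table per kit, as read from the values. Per the submitters' processing notes, bcl2fastq 2.19.1, FastQC, Trimmomatic 0.36, STAR 2.6.0, HTSeq 0.11.2 and the mm10 build were used. Their settings and the annotation are not stated in the sources used. Symbols were matched by gene ID in GENCODE M21 (GRCm38) for 42462 of 43430 IDs. A further 12 symbols matched the rule but were not protein-coding, and 1 protein-coding match was in neither table.

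Each kit was fitted alone with group as the only term: filterByExpr (minimum count 10, minimum total count 15), TMM scaling and quasi-likelihood F tests (edgeR 4.0.16, R 4.3.3, both directions tested), with Benjamini-Hochberg adjustment over all genes tested and calls at 0.05. CPM use effective library sizes. Library medians use log2(CPM + 0.5). Levels per kb use the principal transcript. The code was tested on simulated data. Alternatives included DESeq2 1.42.0 and limma-voom (limma 3.58.1).

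Members and lists were chosen with earlier results of these data known. Named were all called members, a panel of core subunits, isoform groups, members failing the filter, and the largest change and highest level per complex. Some results of named genes are not reported here.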

Additional observations from a re-analysis of the deposited data

Results flagged for a closer look

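In 7 of the 144 groups of library values checked (68 in the ISRIB and 76 in the bleomycin experiment), 1 library stood apart from the rest of its group, and chance alone flags about 1 in 20 groups. Uqcrfs1 was at 61.8 CPM in vehicle 2, against 57.4 to 58 CPM in the other vehicle libraries. Atp5g3 was at 124 CPM in ISRIB 4, against 108 to 109 CPM. In ISRIB 3, Atp5l was at 7.51 CPM, against 4.3 to 4.48 CPM, and Cox6b2 at 6.8 CPM, against 5.09 to 5.29 CPM. In naive 4, Ndufs1 was at 43.2 CPM, against 53 to 55 CPM, and Uqcrfs1 at 19.1 CPM, against 27.8 to 29.7 CPM. Cox8a was at 67.9 CPM in bleomycin 2, against 43.9 to 49.5 CPM. None of these 6 genes was called in either comparison.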

How the results depend on the processing

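The counts of 0 members called after ISRIB and of 1 called lower after bleomycin held under each alternative, and the median after bleomycin stayed above 0 (0.24 to 0.38). The count called higher after bleomycin was 22 with no filter, 21 with total counts only, 17 with DESeq2, 12 with limma-voom and 10 to 24 with 1 library left out (24 without bleomycin 1). Genes called after ISRIB numbered 265, but 648 with no filter, 408 with DESeq2 and 86 to 269 with 1 library left out (86 without vehicle 1, 102 without vehicle 2, 159 without ISRIB 4). With total counts only they split into 169 higher and 111 lower, against 133 and 132. The cause of these moves was not tested.

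Whether replicate numbers pair the libraries is not stated in the sources used. Same-number correlations of deviations from the group means were weak (-0.109 to 0.085). Vehicle 3 and 4 correlated best with the ISRIB library of their own number, the other vehicle and the naive libraries with one of another number. With a replicate block 277 genes were called after ISRIB and 2187 after bleomycin, with 1 member lower and 16 higher: Sdhd was lost and Atp5g3 and Cox8a were gained. It changed no other member call.

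Of uncalled named members, log2 fold changes crossed 0 for Cox5a after ISRIB (0.01 with total counts only), Ndufs7 after bleomycin (0.01 with no filter, 0.07 with total counts only) and Ndufv1 after bleomycin (0.01 with total counts only). With 1 library left out, ranges after ISRIB were -0.0031 to 0.15 for Atp5g2, -0.03 to 0.05 for Atp5g3, -0.02 to 0.04 for Cox4i1, -0.04 to 0.04 for Cox5a, -0.08 to 0.0006 for Cox6a2, -0.22 to 0.0004 for Cox6b2, -0.05 to 0.01 for Ndufa4 and -0.09 to 0.02 for Uqcrc1. After bleomycin they were -0.21 to 0.17 for Atp5g2, -0.59 to 0.0001 for Cox6a2, -0.12 to 0.11 for Ndufs7, -0.15 to 0.05 for Ndufv1 and -0.03 to 0.24 for Uqcrh.

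Depth limits weakly expressed members such as Cox6b2 (32 naive counts). Removing length and GC trends left the bleomycin median at 0.30.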
